A study of Homo sapiens with 10 samples.

Results

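The effect of Endovion on top of THZ531 was followed in 22RV1 cells, an established cell line of castration-resistant prostate cancer, by setting 2 libraries of cells that received both compounds against 2 libraries of cells that received THZ531. These 4 libraries were chosen by their labels from the 10 of the series, without reference to any measured value. All 4 came from cells that had THZ531 for 4 h, at 100 nM in the study's methods and at 150 nM in the design text of the series, and all had 4-thiouridine (4sU) for the last 10 min. The combination libraries had 50 μM Endovion, also known as SCO-101, over the same 4 h. The control libraries (no compound), the Endovion libraries (50 μM for 4 h) and the libraries of SRPIN340, another SRPK inhibitor (20 μM for 4 h), 2 of each, share the estimate of the spread. The controls also give untreated levels, and with the Endovion libraries the effect of Endovion without THZ531. Every group is the same line with 2 libraries, nothing in the labels says that the 2 came from separate cultures, and p-values therefore measure the spread between these libraries, which may be technical.

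THZ531 is a covalent inhibitor of CDK12 and CDK13, kinases that phosphorylate the tail of RNA polymerase II and keep it elongating, above all over long genes. Endovion was used in the study as an inhibitor of SRPK1, a kinase of the serine and arginine rich (SR) splicing factors, and the comparison asks which RNAs it changes in cells whose CDK12 is already inhibited. In SLAM-seq, 4sU is built into RNA made during the labeling and is read as C after alkylation, so that reads with a T>C conversion (T>C reads) stand for newly made, or nascent, RNA, and all reads of a gene stand for total RNA. The reads come from the 3′ ends of transcripts, so a drop in nascent reads cannot be divided into less initiation, lost elongation or a changed 3′ end.

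The THZ531 libraries held 1576125 and 1023882 T>C reads on genes and the combination libraries 1235821 and 1011605. T>C reads made up 5.63% and 5.23% of reads on genes with THZ531 and 5.04% and 5.24% with Endovion added. The groups overlapped, with a mean difference of -0.29 percentage points (exact permutation test, two-sided, p = 0.667, where 2 against 2 libraries cannot go below 0.333). Of 12 luminal prostate markers, 10 had at least 100 reads in each of the 4 libraries, KLK3 and TMPRSS2 being lower, and the 12 summed to 1682 and 1769 counts per 1000000 reads (CPM) with THZ531 and 1488 and 1689 with Endovion added. Of 15 markers of other cells, PTPRC, CD3E, PECAM1, VWF, COL1A2 and DES were at 0 reads in all 4, and 3 (SYP, MAP2 and VIM) had over 100 reads in each. The summed level of those 15 was 83.8 to 91.3 CPM in the 4 libraries. An unlabeled library was not analysed here, so the share of T>C reads that comes from sequencing errors or differences from the reference is not known.

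Few genes were called in nascent RNA when Endovion was added to THZ531, which does not show that few changed. On simulated data the fit recovered 19% of genes changed by a log2 of 1 and 62% of those changed by 2. Genes of xenobiotic metabolism and of the stress response rose, led by CYP1A1, CYP1B1 and CHAC1, while genes of the luminal prostate program and of ribosome and splicing biology fell, among them SLC45A3, PMEPA1, NOP16 and SRSF7. Of 9946 genes tested with edgeR's quasi-likelihood test, 14 rose (0.141%) and 18 fell (0.181%) at an adjusted p under 0.05, together 0.322% of the genes. The median change of all genes tested was 0.02 on the log2 scale. In bulk RNA, fewer cells that express a gene and less RNA per cell cannot be told apart. At the looser threshold in the study's methods (unadjusted p under 0.05 and a log2 change of 1 or more either way), 209 genes were higher (2.10%) and 133 lower (1.34%). The calls depended on single libraries. Without replicate 1 of THZ531, 9 genes rose and 7 fell. Without replicate 2 of THZ531 there were 6 and 5, without replicate 1 of the combination 3 and 0, and without replicate 2 of the combination 12 and 19. All 32 kept their direction in each of these 4 fits, and CYP1A1, CYP1B1 and, without replicate 1 of the combination, CHAC1 were the 3 that passed in the most restrictive of them. With all overlapping intervals of a gene summed, which counts reads again, no gene passed the adjusted test, and all 32 had an unadjusted p under 0.05.

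**Figure D1:**
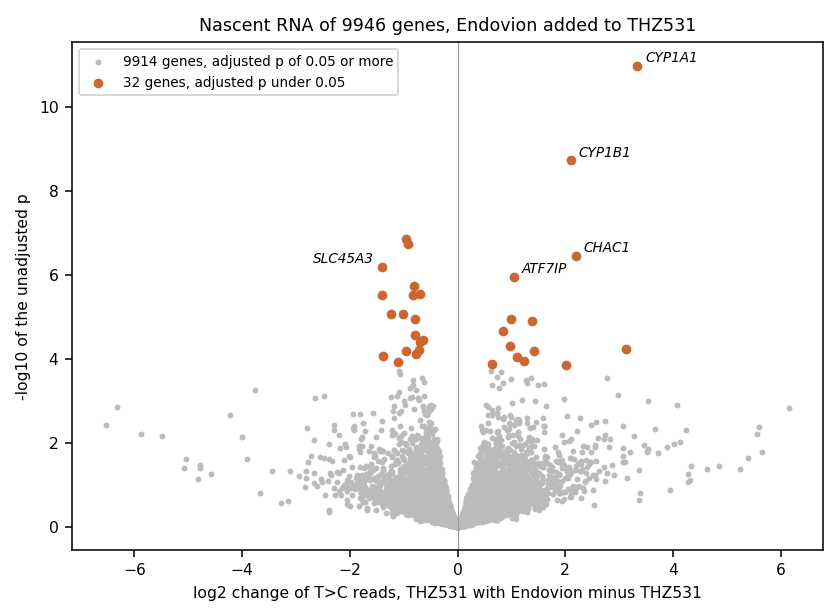
Log2 change of T>C reads when Endovion was added to THZ531 (x axis) against -log10 of the unadjusted p (y axis) for 9946 genes. The 32 genes with an adjusted p under 0.05 are orange; CYP1A1, with a log2 change of 3.34, and CYP1B1, with 2.10, have the smallest p, and SLC45A3 is named among the genes that fell.

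CYP1A1, a cytochrome P450 that oxidizes aromatic compounds and is the best known target of the aryl hydrocarbon receptor (AHR), rose most. Its gene lies at chr15:74719542-74725536 on the minus strand of hg38 (GENCODE 44), and reads were counted in the 3′ intervals of each gene. It had 19 and 4 T>C reads with THZ531 and 79 and 117 with Endovion added. In CPM, T>C reads scaled to a library of 1000000 T>C reads, this is 12.4 and 4.07 against 66.9 and 115, so that the lower combination library lay above the higher THZ531 library. The fold change was 10.1 (log2 change 3.34 ± 0.39 SE, adjusted p = 1.03e-07), and without replicate 1 of THZ531, the log2 change was 4.44, the highest of a range from 2.86 with 1 library left out. All reads of CYP1A1 went from 350 and 223 to 3220 and 2968, a fold change of 11.9 in total RNA.

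CYP1B1 (chr2:38066973-38109902) is a relative of CYP1A1 that the same receptor drives. It had 25.4 and 43.7 CPM of T>C reads with THZ531 and 121 and 168 with Endovion added. Its log2 change was 2.10 ± 0.30 (adjusted p = 9.42e-06). CYP1A1 and CYP1B1 were the only members of 9 AHR targets tested in nascent RNA that rose, and the only ones of 12 in total RNA. Of all genes, 0.141% rose in nascent RNA and 0.327% in total RNA. At an unadjusted p under 0.05, 3 of the 9 were higher and none lower in nascent RNA, beside 4.00% and 3.80% of all genes. The median of the 9 was 0.06 on the log2 scale, and it was 0.23 and 1.03 without replicates 1 and 2 of THZ531 and 0.11 and 0.63 without replicates 1 and 2 of the combination. In total RNA the median of the 12 was 0.51 with 11 above 0, and 5 were higher and 1 lower at an unadjusted p under 0.05, where 6.44% and 4.60% of all genes were. Among these, CYP1A2 and TIPARP had log2 changes in total RNA of 2.39 and 0.96, and AHR itself had -0.65. The AHR repressor AHRR had no T>C read with THZ531 and 2 and 1 with Endovion added, which is too few for a test.

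The integrated stress response is a program in which the transcription factor ATF4 turns on genes of amino acid supply, redox balance and cell death. CHAC1 (chr15:40952962-40956512), an ATF4 target that breaks down glutathione, had 16.9 and 6.10 CPM of T>C reads with THZ531 and 57.6 and 55.1 with Endovion added. It rose 4.56-fold (log2 change 2.19 ± 0.38, adjusted p = 0.000703). Without replicate 1 of THZ531 the log2 change was 3.19, and without replicate 2 it was 1.73 and lost the call (adjusted p = 0.0924, within a range up to 0.221 over the alternatives). SLC7A11, the cystine importer, had 155 and 161 against 279 and 286, with less spread within a group than between them, and rose by 0.84 ± 0.18 on the log2 scale (adjusted p = 0.0127). SLC7A11 lies among the 4 called genes whose intervals overlap those of another gene (with LRATD2, IER5L and HMGCS1), and reads may be shared there.

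HERPUD1 (chr16:56932142-56944864), which serves the degradation of misfolded proteins at the endoplasmic reticulum (ER), had 57.9 and 42.7 CPM of T>C reads with THZ531 and 125 and 93.5 with Endovion added. Its log2 change was 1.10 ± 0.26 (adjusted p = 0.0325). Of 46 ER folding and quality control genes tested, HERPUD1 was the only member that rose and none fell, beside 0.141% and 0.181% of all genes. The median of the 46 was -0.03 on the log2 scale, beside 0.02 for all genes. At an unadjusted p under 0.05, 3 of the 46 were higher (HERPUD1, SEC61B and EIF2AK3) and 3 were lower (DNAJB11, SSR3 and PDIA3), beside 4.00% and 3.80% of all genes.

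Of 37 integrated stress response genes tested, 2 rose (CHAC1 and SLC7A11) and none fell in nascent RNA, beside 0.141% and 0.181% of all genes. The median of the 37 was 0.46 on the log2 scale. At an unadjusted p under 0.05, 15 of the 37 were higher and none lower, where 4.00% of all genes tested were higher and 3.80% lower. Without replicate 1 of the combination the median was 0.29. In total RNA the median was 0.28, 18 of 38 were higher at that p (6.44% of all genes were), none was lower, and SLC38A2 and SLC7A11 passed the adjusted test. The transcription factor CEBPB had 386 and 362 CPM of T>C reads with THZ531 and 652 and 493 with Endovion added (adjusted p = 0.0586). DDIT4, an inhibitor of mTOR signaling, had 47.5 and 29.5 against 125 and 74.8 (adjusted p = 0.0727), and SESN2 had 89.2 and 66.1 against 200 and 112 (adjusted p = 0.0741). These 3 genes were chosen after their values were seen, so their lack of overlap between the groups is no test. Replicate 1 of the combination was the highest library each time. ATF4 itself had 522 and 465 against 810 and 548 (log2 change 0.46 ± 0.16, adjusted p = 0.305). The asparagine synthetase ASNS had a log2 change of 0.29 ± 0.15 and the amino acid transporter SLC7A5 had 0.01 ± 0.14.

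**Figure D2:**
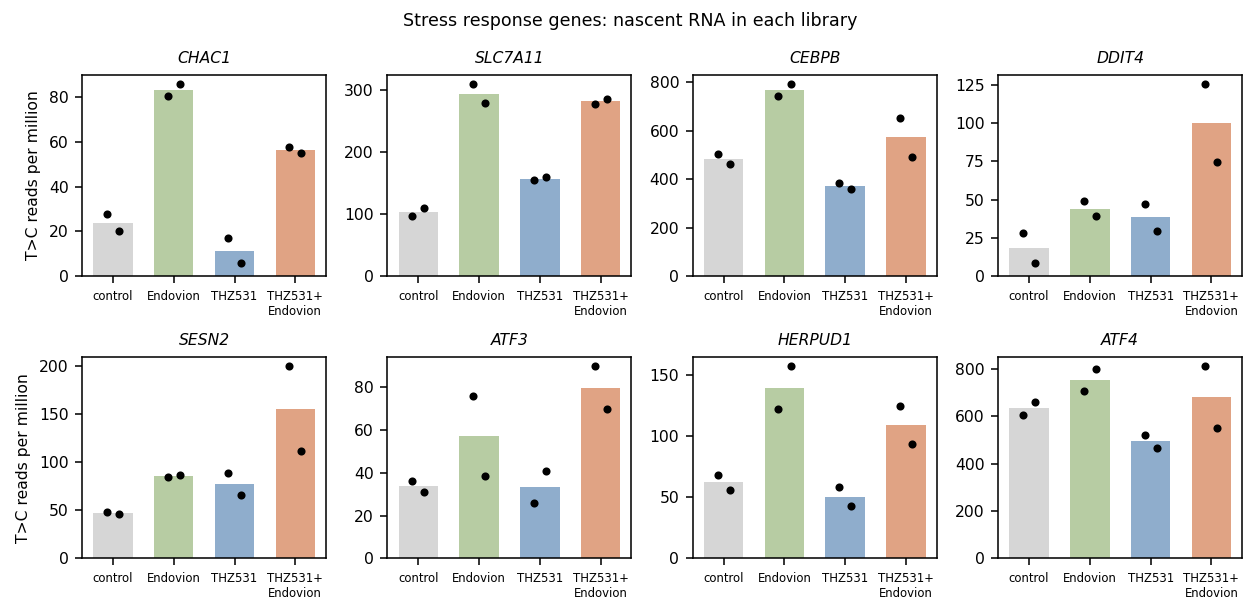
T>C reads in CPM (y axis) of 8 stress response genes in control, Endovion, THZ531 and combination libraries. Bars are means of 2 libraries and dots the libraries; for CHAC1 the combination libraries lie at 57.6 and 55.1 and the THZ531 libraries at 16.9 and 6.10.

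The promoters of the stress response genes are shown because members with the same rise can be compared by the letters ahead of their start sites. RefSeq promoters (GRCh38.p14) of 250 bases before to 50 after a start were searched on both strands for TGATGNAA, the composite element that ATF4 binds, which 4.46% of 27305 genes hold in at least 1 promoter. Of the 14 genes that rose, 10 had a promoter in the table, and it was found for 3, CHAC1, HERPUD1 and ATF7IP. Of the 18 that fell, 16 had a promoter and none held it. It was also found for 11 of 31 integrated stress response genes, and for 4 of the 14 among them with an unadjusted p under 0.05. In the following windows of 30 bases, read along the strand of the gene and placed by a RefSeq start, capitals mark the element in either orientation. The windows of CHAC1, ATF7IP and ASNS lie within the span that GENCODE gives the gene.
CHAC1, chr15:40953251-40953280, plus strand, 209 bases ahead of the start: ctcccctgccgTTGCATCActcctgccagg
HERPUD1, chr16:56931955-56931984, plus strand, 176 bases ahead: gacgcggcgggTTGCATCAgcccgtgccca
ATF7IP, chr12:14408242-14408271, plus strand, 237 bases ahead of an internal start: aatattttaggTGATGAAAtgcaaggcaca
ATF3, chr1:212565205-212565234, plus strand, 191 bases ahead: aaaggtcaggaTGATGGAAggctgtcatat
ASNS, chr7:97872458-97872487, minus strand, 68 bases ahead: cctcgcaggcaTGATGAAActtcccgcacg
CHAC1 and HERPUD1 share the same 8 letters here, and both rose. The same letters, in either orientation, were also in promoters of AARS1, JDP2, MARS1, NARS1, CEBPG and SLC1A5, none of which was called. Of these, AARS1 and JDP2 were higher at an unadjusted p under 0.05 and the others were not. The promoter of ASNS holds the element, with a nascent log2 change of 0.29. ATF3, an early factor of the program, had 26.0 and 40.7 CPM of T>C reads with THZ531 and 89.8 and 69.9 with Endovion added (adjusted p = 0.0803). It was chosen after its values were seen, so its lack of overlap between the groups is no test.

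HERPUD1 was also the only called gene with the ER stress response element II, a site of ATF6 and its cofactor NF-Y, in which the middle base was left free in the search. Of all genes 0.0696% hold it. It stands 117 bases ahead of the start and does not overlap the ATF4 element.
HERPUD1, chr16:56932016-56932045, plus strand: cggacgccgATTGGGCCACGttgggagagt
The AHR core letters GCGTG were in the promoters of 40.6% of all genes, in 6 of the 10 risen genes, CYP1A1 among them, and in 11 of the 16 fallen genes. The E-box CACGTG was in those of 8.77% of all genes, in 3 of the 10 (HERPUD1, PUM2 and FBXW8) and in none of the 16. None of the printed elements overlapped another of the letters searched, and a match describes these windows alone.

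The other genes that rose serve various roles. ATF7IP, a partner of the histone methyltransferase SETDB1, had 142 and 108 CPM of T>C reads with THZ531 and 296 and 223 with Endovion added (log2 change 1.05 ± 0.19, adjusted p = 0.00156). KLHL28 had 29.9 and 43.7 against 91.5 and 98.4 (1.39 ± 0.29, adjusted p = 0.00787), and ZNF131 had 35.8 and 16.3 against 76.3 and 68.9 (1.42 ± 0.33, adjusted p = 0.0264). RSRC2, an SR-related gene, had 44.9 and 44.7 against 114 and 96.4 (1.23 ± 0.30, adjusted p = 0.0381). The groups did not overlap in any of these, which was a condition for naming them. LRATD2 and, chosen after their values were seen, FBXW8, MIB1, PUM2 and KDELR2 complete the 14. FBXW8 rested on 1 and 4 T>C reads against 32 and 10, and LRATD2 on 21 and 4 against 50 and 35.

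For KDELR2, a receptor that returns proteins to the ER, the nascent change stood apart from total RNA. It had 161 and 218 CPM of T>C reads with THZ531 and 369 and 376 with Endovion added (log2 change 0.99 ± 0.20, adjusted p = 0.00731), while total RNA had a log2 change of 0.17 (adjusted p = 0.63). The T>C share of its reads was 5.80% and 6.73% with THZ531 and 10.2% and 10.96% with Endovion added. Control replicate 2 had 13.2%, and the other 5 libraries of the series had 5.05% to 6.54%. The high values thus stood in both combination libraries and in 1 of the 2 control libraries, and what sets these levels was not tested. How variants that read as T>C were masked in each library is not given in the sources used here, so whether all these T>C reads come from new RNA was not tested.

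**Figure D3:**
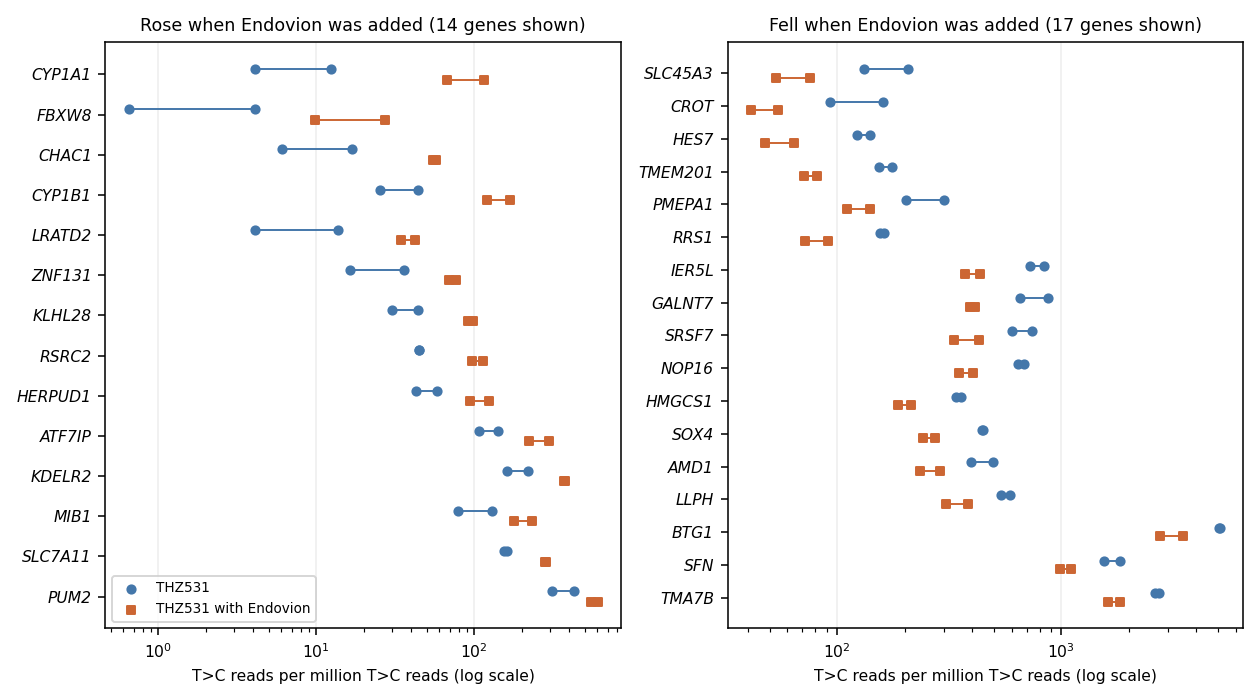
T>C reads in CPM (log axis) of the 14 genes that rose and 17 of the 18 that fell, with 2 dots for the THZ531 libraries and 2 squares for the combination libraries, joined by a line. The groups do not overlap for any gene shown, which was a condition of the rule that named part of them. CYP1A1 lies at 12.4 and 4.07 against 66.9 and 115.

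SLC45A3 (chr1:205657851-205680509), a membrane transporter of luminal prostate cells, fell most among the 18. It had 207 and 131 CPM of T>C reads with THZ531 and 53.4 and 75.8 with Endovion added. The log2 change was -1.41 ± 0.25 (adjusted p = 0.00107), and total RNA changed by -1.30. PMEPA1, a membrane protein and an inhibitor of TGF-beta signaling, had 298 and 202 against 110 and 140 (-1.01 ± 0.21, adjusted p = 0.00655).

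Transcription factors of the prostate lineage had the lowest median of the lists with at least 10 genes tested, -0.47 over 16 genes, with none past the adjusted test in nascent RNA. GATA2, a zinc finger factor of the lineage, had 156 and 155 CPM of T>C reads with THZ531 and 55.9 and 93.5 with Endovion added (adjusted p = 0.0645). SOX9 had 205 and 225 against 94.0 and 150 (adjusted p = 0.0852), and FOXA1 had 130 and 224 against 82.2 and 108 (adjusted p = 0.0971). HOXB13 and ELF3 were also lower at an unadjusted p under 0.05, while SPDEF was among those higher. ELF3 fell in total RNA, by 0.63 on the log2 scale (adjusted p = 0.0404). GATA2, SOX9, FOXA1 and ELF3 were chosen after their values were seen, so a lack of overlap between the groups is no test.

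Further factors that fell have short genes. HES7, a transcriptional repressor downstream of the Notch pathway, had 140 and 122 CPM of T>C reads with THZ531 and 47.4 and 64.0 with Endovion added (-1.24 ± 0.25, adjusted p = 0.00655). The lineage factor SOX4 had 448 and 444 against 241 and 274 (-0.79 ± 0.17, adjusted p = 0.00731), and BTG1, an antiproliferative gene, had 5081 and 5059 against 2741 and 3487 (-0.70 ± 0.14, adjusted p = 0.00277). The following genes that fell were chosen after their values were seen. GALNT7, which adds sugars to proteins, had 652 and 875 against 392 and 412 (-0.92 ± 0.16, adjusted p = 0.000454), and IER5L had 726 and 837 against 373 and 434 (-0.95 ± 0.16, adjusted p = 0.000454). AMD1, LLPH, SFN and TMA7B had log2 changes of -0.78 to -0.63. For BTG1, PUM2, IER5L and TMA7B, more than 20% of reads carried a conversion in the control. TMA7B is a near-identical copy of TMA7, so its reads cannot be assigned with certainty.

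Metabolic and nuclear membrane genes were also among those that fell. CROT, a carnitine acyltransferase of the peroxisome, had 93.1 and 160 CPM of T>C reads with THZ531 and 54.2 and 41.3 with Endovion added (-1.38 ± 0.33, adjusted p = 0.0308). With only the single best interval of each gene it had -0.70 and lost the call (adjusted p = 0.845, the highest over the alternatives). Leaving out 1 of the 4 libraries gave -1.73 to -0.95, and of these it was called only without replicate 1 of THZ531. TMEM201, of the inner nuclear membrane, had 154 and 175 against 71.2 and 81.7 (-1.10 ± 0.27, adjusted p = 0.0402). HMGCS1, which makes the precursor of mevalonate, had 358 and 339 against 214 and 186 (-0.80 ± 0.18, adjusted p = 0.0153). It was the only called gene of 27 of cholesterol and fatty acid synthesis, where 0.322% of all genes were called. The median of the 27 was -0.22 on the log2 scale (-0.37 without replicate 2 of THZ531), and 5 (HMGCS1, MSMO1, INSIG1 and MVK among them) were lower at an unadjusted p under 0.05 with none higher, beside 3.80% and 4.00% of all genes. In total RNA 13 of 32 were lower at that p, where 4.60% of all genes were, none was higher, and HMGCS1 and MSMO1 fell by 0.76 and 0.74 on the log2 scale.

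NOP16 and RRS1, factors of ribosome assembly in the nucleolus, fell. NOP16 had 684 and 644 CPM of T>C reads with THZ531 and 350 and 405 with Endovion added (-0.82 ± 0.15, adjusted p = 0.00236), and RRS1 had 161 and 156 against 72.0 and 91.5 (-0.96 ± 0.22, adjusted p = 0.0264). Of 50 nucleolar genes these 2 fell and none rose, with a median of -0.21, where 0.181% of all genes fell. At an unadjusted p under 0.05, 3 of the 50 were lower and none higher, beside 3.80% and 4.00% of all genes. In total RNA 9 of 53 were lower and 1 higher at that p, beside 4.60% and 6.44%. Of 116 MYC targets, 2 fell (NOP16 and SRSF7), none rose, and the median was -0.07. Of the 116, 9 were lower and 1 higher at that p in nascent RNA. In total RNA, 21 of 119 MYC targets were lower and 1 (MCM3) higher at an unadjusted p under 0.05, beside 4.60% and 6.44% of all genes.

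**Figure D4:**
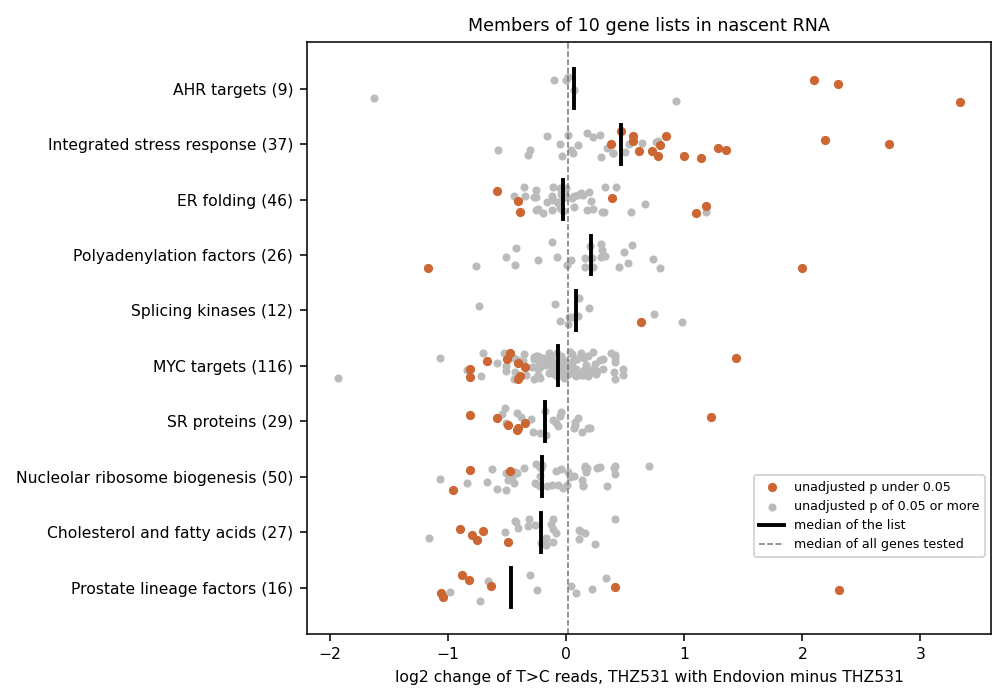
Log2 change of T>C reads when Endovion was added to THZ531 (x axis) for the tested members of 10 gene lists, their number in parentheses. Orange members have an unadjusted p under 0.05, black bars are list medians and the dashed line is the median of all 9946 genes, 0.02; the integrated stress response has a median of 0.46 and prostate lineage factors have -0.47.

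SRSF7, an SR protein of splicing and of RNA export, had 603 and 738 CPM of T>C reads with THZ531 and 330 and 429 with Endovion added. It fell by 0.82 ± 0.16 on the log2 scale (adjusted p = 0.00277). Of 29 genes of SR and related proteins, SRSF7 fell and RSRC2 rose, with a median of -0.18, where 0.181% of all genes fell and 0.141% rose. Without replicate 2 of THZ531 the median was 0.0042, and without replicate 1 it was -0.32. SRSF2, SRSF3, SRSF5, SRSF6 and SON were lower at an unadjusted p under 0.05, so that 6 of the 29 were lower, beside 3.80% of all genes. SRSF1, a substrate of SRPK1, had 314 and 315 against 259 and 299 (-0.17 ± 0.17, adjusted p = 0.882). The gene of the kinase itself, SRPK1, had 74.8 and 80.3 against 79.6 and 87.6 (0.11 ± 0.26, adjusted p = 0.975), and the libraries overlapped. SRPK2 had 12.4 and 35.6 against 27.1 and 19.7. The targets of THZ531 and their cyclin did not pass either, with log2 changes of 0.45 ± 0.29 for CDK12, 0.38 ± 0.35 for CDK13 and 0.31 ± 0.30 for CCNK. VEGFA had 105 and 106 against 140 and 143 (0.42 ± 0.25, adjusted p = 0.736).

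MYC, the transcription factor whose program the study follows under CDK12 inhibition, had 287 and 251 T>C reads with THZ531 and 131 and 172 with Endovion added. In CPM this is 187 and 255 against 111 and 169, with the lower THZ531 library above the higher combination library. The log2 change was -0.65 ± 0.22 and did not pass the test across all genes (adjusted p = 0.281). With 1 library left out it lay between -0.98, without replicate 2 of the combination, and -0.38, without replicate 1 of it. Total RNA of MYC had a log2 change of -0.31 (adjusted p = 0.86).

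Nascent medians of gene classes by length and exon number lay between -0.17 and 0.10. Of protein-coding genes, 109 with merged exons under 1 kb had a median nascent log2 change of -0.07, and 562 with merged exons over 15 kb had 0.10. Genes with more than 30 exons had 0.06 over 421 genes, genes that span over 200 kb had 0.09 over 687, and the 120 genes with 1 exon had -0.17. No gene of the first 4 classes passed the adjusted test, while 5 of the genes with 1 exon fell (SOX4, RRS1, SFN and IER5L among them), beside 0.181% of all genes. Of the genes with 1 exon 15.8% were lower at an unadjusted p under 0.05 and 3.33% higher, beside 3.80% and 4.00% of all genes. In total RNA 10.2% of genes with merged exons over 15 kb were higher and 1.86% lower at that p, beside 6.44% and 4.60%. The 14 genes that rose had a median span of 60.6 kb and the 18 that fell 6.73 kb, beside 33.5 kb for all genes tested. In total RNA the genes that rose had a median span of 49.0 kb, and 2 of the 27 that fell spanned over 100 kb, beside 19.1% of all genes.

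In total RNA, 48 of 14690 genes rose (0.327%) and 27 fell (0.184%), together 0.511%. At the methods' threshold 199 were higher (1.35%) and 98 lower (0.667%). Without replicate 2 of THZ531, 5 rose and 4 fell, without replicate 1 of the combination 5 and 3, without replicate 1 of THZ531 47 and 27, and without replicate 2 of the combination 67 and 64. All 32 genes called in nascent RNA had the same sign in total RNA. Of them 18 were called there too, beside 0.511% of all genes. T>C reads are counted among all reads of the same libraries, so the 2 measures are not independent. PAX6, a factor of neural and endocrine cells, had 6.67 and 6.70 CPM with THZ531 and 18.1 and 16.3 with Endovion added (log2 change 1.36 ± 0.20, adjusted p = 0.00514). GOLPH3L, of the Golgi, had 32.4 and 22.7 against 62.1 and 54.9 (1.08 ± 0.16, adjusted p = 0.00514). Among further genes chosen after their values were seen, EGR1, an immediate early factor, had 12.7 and 18.8 against 42.5 and 26.2 (1.13 ± 0.23, adjusted p = 0.045). The tight junction gene CLDN4 had 254 and 282 against 148 and 167 (-0.77 ± 0.11, adjusted p = 0.00514).

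PCF11, a factor that ends transcription at poly(A) sites, is a gene for which the group without compound helps to read the level. Its total RNA was 17.8 and 20.7 CPM in the controls, 1.70 and 1.34 with THZ531, and 5.39 and 3.14 with Endovion added. It rose by 1.48 ± 0.26 on the log2 scale (adjusted p = 0.0202) and stayed under the controls in both combination libraries. SMCR8, of an autophagy complex, had 27.4 and 34.8 in the controls, 6.53 and 5.95 with THZ531 and 13.8 and 12.7 with Endovion added (1.08 ± 0.17, adjusted p = 0.00848). PCF11 and SMCR8 were chosen after their values were seen. The effect of THZ531 against the controls is measured with the same THZ531 libraries as the effect of Endovion added to it, so the 2 changes of a gene are not independent and only the levels are given.

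The T>C share of a gene, its T>C reads against its reads without a conversion, passed the adjusted test for none of 9946 genes (0.00%) with edgeR. At an unadjusted p under 0.05 there were 462 (4.65%), and limma on the log2 odds called 1 gene, SEMA6C, on 1 and 0 T>C reads against 12 and 6. Of the 32 genes called in nascent RNA, 7 had an unadjusted p under 0.05 for the share, KDELR2, FBXW8, MIB1, LRATD2, PUM2, RSRC2 and SRSF7. CYP1A1 had shares of 5.43% and 1.79% with THZ531 and 2.45% and 3.94% with Endovion added, with overlap between the groups.

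**Figure D5:**
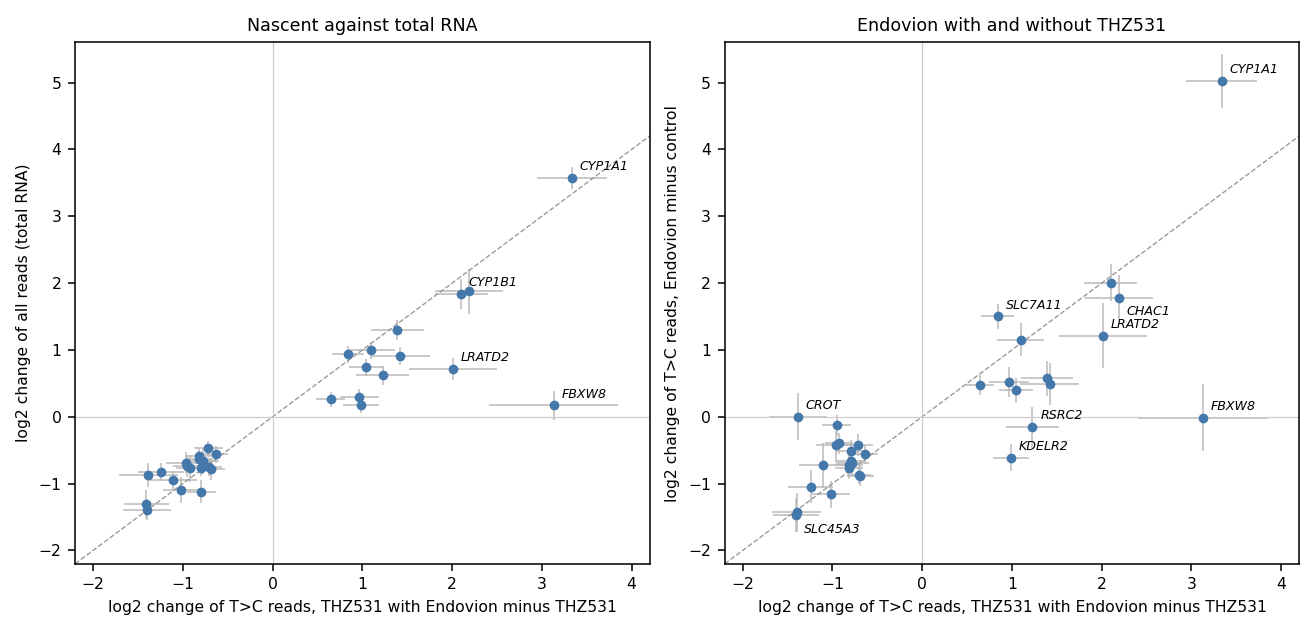
Log2 change of T>C reads when Endovion was added to THZ531 (x axes) for the 32 called genes, against their log2 change in total RNA (left) and against the log2 change of T>C reads by Endovion without THZ531 (right). Bars are standard errors and dashed lines mark equal values; CYP1A1 lies at 3.34 with THZ531 and 5.02 without it, and KDELR2 at 0.99 and -0.61.

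Most of the 32 genes had the same sign where Endovion was given without THZ531, in libraries that this comparison does not contain. Of the 32, 28 had the same sign against the controls, and 16 passed the adjusted test there, 5 higher and 11 lower, beside 2.04% and 0.623% of all genes. The share of all genes with the same sign in both is not given here, so the 28 have no background beside them. CYP1A1 had 5.15 and 6.42 CPM of T>C reads in the controls and 180 and 199 with Endovion, a log2 change of 5.02. CYP1B1 had 2.01, CHAC1 1.78, SLC7A11 1.50, HERPUD1 1.15 and SLC45A3 -1.47, each past the adjusted test. RSRC2 (-0.15), FBXW8 (-0.01), KDELR2 (-0.61) and CROT (0.00) did not share the sign of their change on THZ531. CROT had 36.7 and 28.9 in the controls and 43.0 and 22.1 with Endovion. Across all 9946 genes the 2 log2 changes had a Pearson correlation of 0.11, given as a description, since genes of 1 library are not independent.

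The difference between the 2 effects of Endovion was tested itself. Of the 32 genes, 1 passed, KDELR2, with 1.60 ± 0.29 on the log2 scale (adjusted p = 0.00256). CYP1A1 had -1.69 (adjusted p = 0.38). Among the genes that the study turns on, MYC passed, with -1.42 ± 0.32 (adjusted p = 0.0256). MYC had 85.0 and 66.6 CPM of T>C reads in the controls and 117 and 141 with Endovion. Over all genes, 2 lay above 0 (0.0201%), KDELR2 and WNT7B, and 28 below 0 (0.282%), and in 28 of these 28 both control libraries were below all 8 other libraries of the series. For Endovion added to THZ531, 3 of the 28 had an unadjusted p under 0.05, where 4.00% of all genes were higher and 3.80% lower. Whether the level of the control libraries sets these differences was not tested.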

How the data were processed

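SLAM-seq was run by the authors on 22RV1 cells with 3′ end libraries sequenced as single reads. The study's methods say that molecular identifiers were built into the libraries. Conversions were called with SLAM-DUNK. Its version, its masking of variants and whether the identifiers were used in the analysis are not given in the sources used here. The submitters' processing notes name Bowtie2 2.3.4.1, SAMtools 1.6, DESeq2 1.38.2 and hg38. The authors deposited for each library a table of 104653 intervals with raw counts (all reads, T>C reads, and conversions over the T positions read), which were used here. The deposited conversion rate, a fraction, and the deposited score of depth-scaled reads were not used. T content equalled that of hg38 in 2000 of 2000 intervals drawn.

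Intervals were matched to GENCODE 44 by transcript (92910 of them). Where intervals of a gene overlapped, that with the highest coverage stood for them, since 48.8% of T>C reads in a plain sum were counted again, and 57587 kept intervals were summed to 31015 genes. Counts were tested with edgeR 4.0.16 (TMM, filterByExpr, robust quasi-likelihood, 5 residual degrees of freedom) in 1 fit of 10 libraries in 5 groups, which share the estimate of the spread. P-values were adjusted by Benjamini-Hochberg over all genes tested. The T>C share was tested as the interaction of group with read class, with the library as a block. CPM use TMM library sizes. DESeq2 1.42.0 and limma 3.58.1 were alternatives. On simulated data of 9078 genes, the nascent fit for combination against THZ531 recovered 19% of genes changed by a log2 of 1 and 62% of those changed by 2. No 2 libraries looked like a repeat deposit, since the replicates were further apart than counting error allows (chi-square per degree of freedom of 3.94 for THZ531 and 3.95 for the combination). Reads may not be independent molecules, so counts carry more than counting error. Same-numbered replicates of the 2 groups did not deviate together (correlation -0.01 in T>C reads).

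Genes named by rule are the 12 risen and 12 fallen with the smallest p in nascent RNA and 5 and 5 in total RNA and share (adjusted p under 0.05, log2 change of at least 1 in size, 20 reads in both higher libraries, no overlap), genes of the study, and called members of lists, at most 5 each way. Other genes given with values, ATF3, ATF4, ASNS, SLC7A5, GATA2, SOX9, FOXA1, PCF11 and SMCR8 among them, were chosen after their values were seen. The members and lists were chosen with earlier results of these data known. Results for some genes and 1 gene list are not reported here.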

Additional observations from a re-analysis of the deposited data

Results flagged for a closer look

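Among the named genes, the effect of Endovion differed between cells with and without THZ531 for 2 by edgeR's test of the difference itself. KDELR2 had a nascent log2 change of 0.99 with THZ531 and -0.61 without it, a difference of 1.60 ± 0.29 (adjusted p = 0.00256). Its T>C share was 6.54% and 13.2% in the 2 control libraries, so that the effect without THZ531 rests on control replicate 2, and without that library the difference was 1.08 (adjusted p = 0.216). The call was also lost without Endovion replicate 1 (0.064) and with all overlapping intervals summed (0.419, the highest p over the alternatives). How variants that read as T>C were masked is not given in the sources used here, and whether all T>C reads of KDELR2 come from new RNA was not tested. MYC had -0.65 with THZ531 and 0.76 without it, a difference of -1.42 ± 0.32 (adjusted p = 0.0256), and both control libraries, at 85.0 and 66.6 CPM of T>C reads, were below the 8 others. Leaving out single libraries moved the MYC difference from -1.74 to -1.14, and it lost the call without Endovion replicate 1 (adjusted p = 0.064), Endovion replicate 2 (0.144), THZ531 replicate 2 (0.337), combination replicate 1 (0.258) or control replicate 2 (0.243). Over all alternatives its adjusted p lay between 0.00445 and 0.409.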

How the results depend on the processing

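The 32 nascent calls kept their direction under every alternative that gave them a value, where leaving out genes with over 20% T>C in the control removed BTG1, PUM2, IER5L and TMA7B. CROT moved from -1.38 to -0.70 with the single best interval. With all overlapping intervals of a gene summed, 0 genes rose and 0 fell in nascent RNA (all 32 had an unadjusted p under 0.05, and the adjusted p of CYP1A1 was 0.143, the highest of a range from 2.3e-14 over the alternatives), 9 rose and 4 fell in total RNA, and 0 and 2 genes lay above and below 0 for the difference of the Endovion effects. DESeq2 over the 4 libraries gave 7 nascent genes that rose and, at the methods' threshold, 67 higher and 53 lower, and in total RNA 60 that fell, 79 higher and 57 lower. DESeq2 over 10 libraries gave 150 and 107 in total RNA, and 1 above and 17 below 0 for the difference. edgeR over the 4 libraries gave 123 nascent genes higher at the methods' threshold, and in total RNA 13 that rose, 11 that fell and 125 higher. For the share it called 2 up (COX6A1 and PABPC3) and 1 down (NDUFB7), and limma called 1 up. Factors from all reads left 9 nascent genes that rose, and no filter gave 212 and 141 in total RNA. With genomic span as length, the median of short genes was -0.14 and of long genes 0.039. SRPK2, at 0.02, changed sign with factors from all reads (-0.031) and, leaving out libraries, ranged from -0.60 to 0.92. The cause was not tested for any of these.

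Leaving out 1 library at a time gave 3 to 12 nascent genes that rose and 0 to 19 that fell, with 189 to 295 higher and 133 to 268 lower at the methods' threshold. In total RNA it gave 5 to 67, 3 to 64, 156 to 275 and 124 to 211. For the share it gave 116 to 170 and 107 to 242 at that threshold, against 103 and 136. Of the difference of the Endovion effects it left 0 to 7 above and 1 to 100 below 0, the lowest count below without Endovion replicate 1 and the highest without control replicate 1. The replicate block gave 19 and 24 nascent genes, 41 and 25 in total RNA, and 2 and 33 for the difference. Deviations of same-numbered replicates of THZ531 and the combination correlated at -0.01 in T>C reads and 0.08 in all reads. For other pairs of groups the correlation in all reads ran from -0.35 (control and THZ531) to 0.45 (THZ531 and SRPIN340). Whether the replicate numbers mark a shared handling was not tested. Among single genes, 497 values kept their side of the threshold, 148 lost it and 3 reversed. Genes such as FBXW8 had few T>C reads, which limits how well their change is known.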

Other observations

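Several genes that rose in total RNA belong to no list described above. CREBRF, a repressor of the unfolded protein response factor CREB3, had 13.97 and 16.1 CPM with THZ531 and 63.2 and 33.9 with Endovion added, against 21.1 and 19.8 in the controls (adjusted p = 0.0263 by edgeR). CCNG2 and FBXO32, known targets of FOXO factors, rose by 1.13 and 1.45 on the log2 scale. KLF7 rose by 0.95. HSPBAP1 was lower with THZ531, at 0.295 and 0.268, than in the controls, at 2.57 and 3.20, and had 1.62 and 1.52 with Endovion added. These genes were chosen after their values were seen.

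DNA repair genes, a program for which CDK12 is known, had a median log2 change of 0.20 over 36 genes in nascent RNA, with 4 higher and none lower at an unadjusted p under 0.05, beside 4.00% and 3.80% of all genes. The median was 0.069 without replicate 2 of the combination. In total RNA 8 of 43 were higher and 1 lower, beside 6.44% and 4.60%. None passed the adjusted test in nascent RNA.

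COX6A1, a subunit of cytochrome c oxidase, had a T>C share of 4.47% and 4.23% with THZ531 and 16.6% and 15.995% with Endovion added, while its total RNA had a log2 change of 0.13. SRPIN340 replicate 1 had 4.71% and replicate 2 had 16.04%, and the control and Endovion libraries had 4.14% to 5.93%. The test of its share over 10 libraries did not pass, and the test over the 4 libraries gave an adjusted p of 6.88e-16. How variants were masked is not given in the sources used here, and whether all T>C reads of COX6A1 come from new RNA was not tested.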
